A study of Mus musculus with 12 samples.

Results

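Mouse 3T3-L1 adipocytes exposed to 5 µM berberine for 6 h were compared with the same cells exposed for 3 h. The 3 arrays titled berberine 6 h and the 3 titled berberine 3 h were taken, 6 of the 12 arrays in the series, and all 6 were used. The other 6 arrays hold cells given 5 µM berberine for 12 h or the solvent DMSO, 3 each, and their levels are given only as context. They also enter the filter on dim signals, the choice of probe sets and the pooled spread behind each p-value. The 3T3-L1 line is a mouse fibroblast line that becomes fat cells in culture. Per the labels' protocols, all cells were differentiated for 48 h with insulin at 5 µg/ml, the glucocorticoid dexamethasone at 1 µM and the phosphodiesterase inhibitor IBMX at 0.5 mM, and used at days 8 to 10. They then spent 12 h in medium with 0.2% albumin in place of serum before treatment. The labels do not say that replicates came from separate cultures, so each p-value speaks only to the spread among these arrays, which may be technical. No DMSO arrays are labelled for 3 h or 6 h, so longer exposure and longer time in the treatment medium cannot be told apart in this comparison. In cultures measured in bulk, fewer cells of a kind and less RNA per cell cannot be told apart either.

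Berberine is a plant alkaloid that is known to inhibit complex I of the mitochondrial respiratory chain and to activate the energy-sensing kinase AMPK. Mitochondrial inhibition, amino acid shortage and misfolded protein in the endoplasmic reticulum share one output, the integrated stress response. In it, kinases phosphorylate the translation initiation factor eIF2, general protein synthesis slows, and the transcription factor ATF4 is translated more. ATF4 binds C/EBP-ATF response elements with partner proteins and induces genes that make, import and charge amino acids. It also induces CHOP, the product of Ddit3, and the pseudokinase TRIB3, which limits ATF4 activity. In adipocytes, insulin restrains lipolysis, the breakdown of stored fat, partly through the phosphodiesterase PDE3B, and cell-surface receptors for hydroxycarboxylic acids do the same by lowering cyclic AMP.

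At 6 h the integrated stress response was the list with the most genes called higher. Of its 35 members tested, 19 were called higher at 6 h than at 3 h and 0 were called lower. Amino acid enzymes, amino acid transporters and tRNA synthetases supplied most of them. Genes of fat storage control, insulin signalling and the hypoxia response were among those called lower. A level here is a log2 signal, on which a difference of 1 is a 2-fold change, and a call means that limma's adjusted p was under 0.05 (Benjamini-Hochberg over 12136 genes). In all, 284 genes were called, which is 2.34% of those tested. Of these, 145 were higher at 6 h (1.19%) and 139 were lower (1.15%).

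The 284 called genes moved by a median of 0.40 on the log2 scale, and 203 of them moved by less than 0.5. A change of at least 1 was reached by 10 of them, all higher. In each of the 284, the 3 arrays at 6 h did not overlap the 3 arrays at 3 h. Such a separation was found in 21.4% of all genes tested, so it marks no gene out. The number of calls depended on the arrays. It was 229, 107 and 97 in the fits lacking 6 h replicate 1, 2 or 3, and 99, 116 and 85 in those lacking 3 h replicate 1, 2 or 3. All 284 kept their direction in the 6 fits that left out an array, and 57 were called in each of them. Without limma's intensity trend, which gives bright genes a smaller assumed spread, 60 genes were called. A fit on the 6 arrays of 6 h and 3 h alone called 286 genes, 235 of them among the 284. After each array was centred on its median, 168 genes were called higher and 76 lower, so the near balance of directions depends on the scaling. With the mean of a gene's probe sets in place of its brightest one, 146 genes were called, and of the 103 called genes named here 45 lost their call (adjusted p 0.0502 to 0.981), 42 of them among the 65 with more than 1 kept probe set. The stress response list had 15 called members in that fit. Among the 45 were Eif4ebp1, Gtpbp2, Foxo3, Pck1, Ak4, Nfkbie, Klf4 and Klf9, and such losses are not repeated below for every gene. The genes called in each of the 15 alternative fits numbered 21, namely Atf4, Trib3, Nupr1, Jdp2, Ppp1r15a, Gadd45a, Cth, Psph, Mthfd2, Slc7a5, Sars, Hmox1, Cdkn2b, Ifrd1, Tbpl1, Cyb5r1, Paqr3 and Zbtb18, all higher, and Hcar2, Vsir and Mcm4, all lower.

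**Figure D1:**
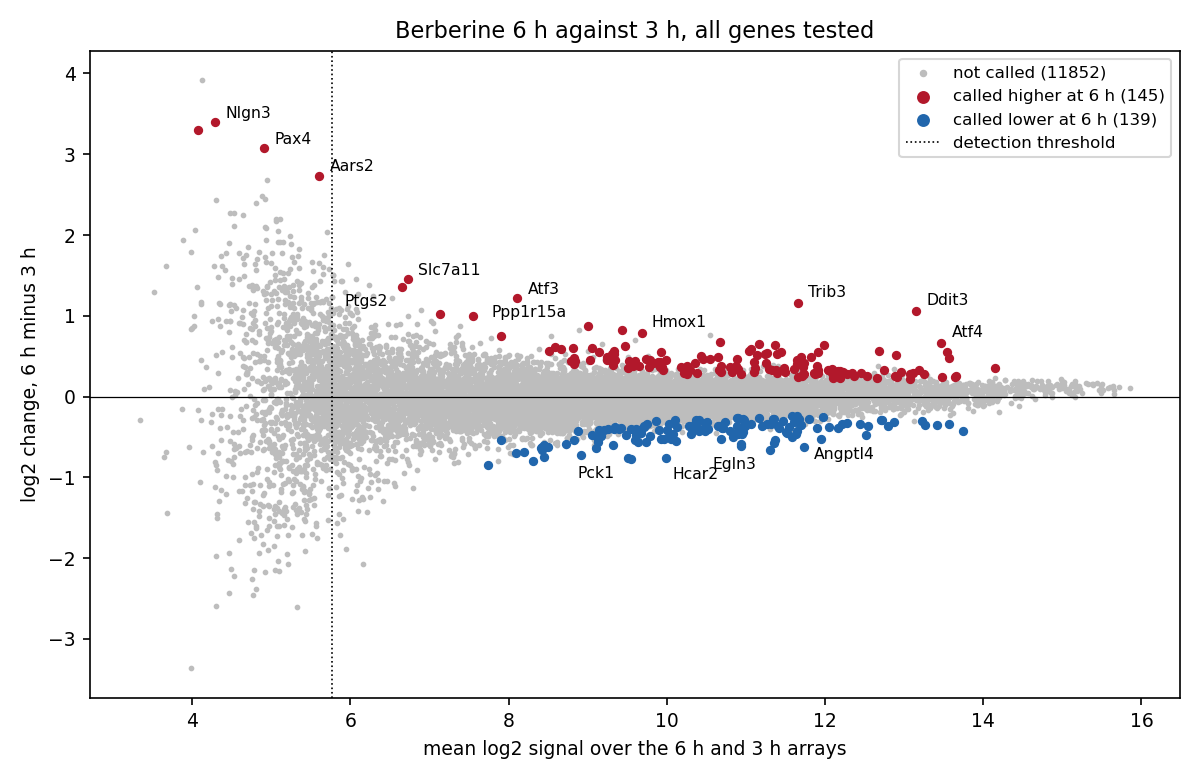
Log2 change at 6 h against 3 h (vertical axis) for each of the 12136 genes tested, by mean log2 signal over the 6 arrays (horizontal axis), with called genes in colour and the detection threshold dotted. The called genes with the largest fitted changes lie at or left of the threshold at 5.77, while Trib3, Ddit3 and Atf4 rose at high signal.

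The arrays were alike in detection, correlation and actin ratio, but not in every respect. Non-control probe sets at the floor of the log2 signal numbered 255, 268 and 333 at 6 h, against 370, 350 and 427 at 3 h, without overlap. The spiked-in controls read higher at 6 h, as described further below. Between 49.8% and 51.6% of probe sets per array at 6 h lay at or above the detection threshold of 5.77, the median of all values, against 49.2% to 50.7% at 3 h. Pairwise correlations of log2 signal over the probe sets, given as a description, lay between 0.912 and 0.914 within the 6 h group, between 0.915 and 0.918 within the 3 h group and between 0.912 and 0.917 across them. The actin 3' probe set exceeded the 5' one by 1.57 to 1.70 at 6 h, against 1.54 to 1.60 at 3 h. All 9 adipocyte markers tested were above the threshold on all 6 arrays, and so were all 8 fibroblast or preadipocyte markers. Of 6 macrophage markers 2 were above it on all 6 arrays, and of 4 endothelial markers 3 were above it on none. The adipocyte marker Cidec and the preadipocyte marker Pdgfra were called, both lower, and the summed linear levels of both lists overlapped between the groups.

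Regulators of the stress response were among the genes called higher. Atf4, which encodes the central transcription factor, read 13.72, 13.78 and 13.88 at 6 h, against 13.19, 13.24 and 12.98 at 3 h. Ddit3, which encodes CHOP, a factor of the later and death-promoting arm, read 13.60, 13.66 and 13.79 at 6 h, against 12.70, 12.57 and 12.60 at 3 h. Trib3 read 12.17, 12.16 and 12.38 at 6 h, against 11.06, 11.09 and 11.08 at 3 h. In all 3 genes the lowest 6 h array stood well above the highest 3 h array. The changes were 0.66 ± 0.07 for Atf4 (SE; limma, adjusted p = 5.4e-05), 1.05 ± 0.06 for Ddit3 (adjusted p = 2.55e-08) and 1.16 ± 0.10 for Trib3 (adjusted p = 5.97e-06). These correspond to 1.58-fold, 2.08-fold and 2.23-fold. The Ddit3 value is that of its brightest probe set; a second one gave -0.76 ± 0.66, and the mean of both ended the call (adjusted p = 0.899).

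Atf3, a stress-induced repressor and activator of the same protein family, read 8.68, 8.52 and 8.96 at 6 h, against 7.46, 7.81 and 7.23 at 3 h. Ppp1r15a, which encodes GADD34, the subunit that directs dephosphorylation of eIF2, read 9.35, 9.35 and 9.62 at 6 h, against 8.40, 8.57 and 8.71 at 3 h. Nupr1, a small chromatin protein of stressed cells, read 13.77, 13.86 and 13.78 at 6 h, against 13.33, 13.36 and 13.29 at 3 h. None of the 3 overlapped between the times. Atf3 rose 2.33-fold (limma, adjusted p = 0.00615), Ppp1r15a 1.84-fold (adjusted p = 0.0018) and Nupr1 1.39-fold (adjusted p = 0.000174). Without the intensity trend the call of Atf3 ended (adjusted p = 0.0633).

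Further regulators of stress responses were called. Jdp2, a dimerization partner and repressor of the AP-1 and ATF family, rose by 0.65 ± 0.07 (limma, adjusted p = 5.4e-05), and Gadd45a, a growth arrest gene of the stress response, by 0.63 ± 0.08 (adjusted p = 0.000328). Atf5, an ATF4-related factor, rose by 0.38 ± 0.07 (adjusted p = 0.0108), a call that ended without 6 h replicate 3 or 3 h replicate 3 (adjusted p up to 0.0622). Chac1, which encodes an enzyme that degrades glutathione, rose by 0.36 ± 0.09 (adjusted p = 0.0339), but only 1 of the 6 fits that left out an array called it, that without 6 h replicate 2, and the others gave adjusted p up to 0.157. Herpud1, an endoplasmic reticulum degradation gene, rose by 0.33 ± 0.07 (adjusted p = 0.0254) and was likewise called only in the fit without 3 h replicate 1 among these 6 (others up to 0.106). Eif4ebp1, a repressor of cap-dependent translation, rose by 0.24 ± 0.06 (adjusted p = 0.0287) and was called only without 6 h replicate 1 (others up to 0.127). Ddit4, which encodes REDD1, an inhibitor of mTORC1, read 11.51, 11.42 and 11.79 at 6 h and 11.22, 11.29 and 11.15 at 3 h and was not called (adjusted p = 0.193). Eif2ak3, which encodes PERK, the eIF2 kinase of the endoplasmic reticulum, moved the other way, by -0.29 ± 0.07 (adjusted p = 0.0408), and was called in none of the 6 fits (adjusted p up to 0.156).

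Of the 35 stress response members tested, 54.3% were called, and 26 had higher values on all 3 arrays at 6 h than on any at 3 h, which 10.3% of all genes tested did. The list's median change was 0.40, against -0.01 for all genes. It overlaps the amino acid lists described next, and it was chosen with earlier results of these data known. Its called members numbered 18, 17 and 13 in the fits lacking 6 h replicate 1, 2 or 3, and 14, 16 and 14 in those lacking 3 h replicate 1, 2 or 3, and 11 without the intensity trend. The 16 members that were not called included Sesn2 (0.48 ± 0.25), Shmt2 (0.40 ± 0.21), Slc3a2 (0.37 ± 0.10, adjusted p = 0.0655) and Psat1 (-0.01 ± 0.06).

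**Figure D2:**
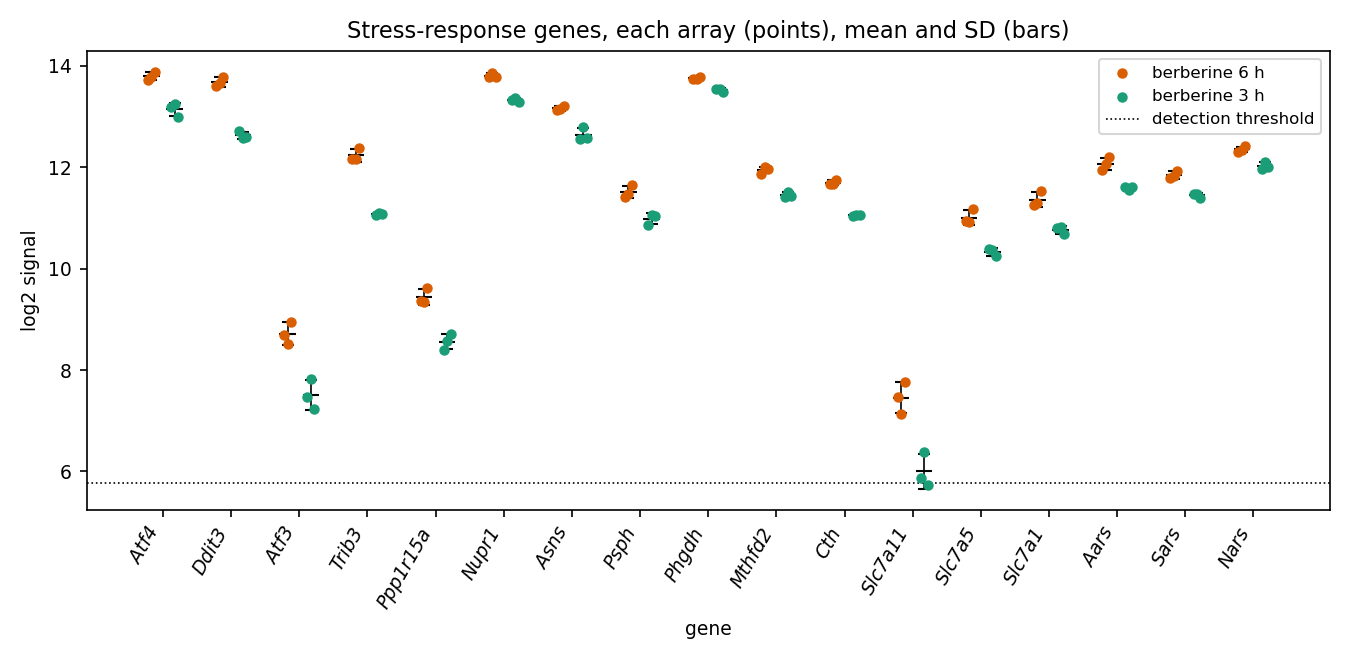
Log2 signal of 17 stress response, amino acid and synthetase genes on each 6 h array (left, orange) and each 3 h array (right, green), with bars for the mean and SD of 3 arrays and the detection threshold dotted. In each of these genes the 3 arrays at 6 h lie above the 3 at 3 h, most widely in Trib3, Ddit3, Atf3 and Slc7a11.

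Many of these genes are known to be driven through the C/EBP-ATF response element, so it was searched in their promoters. The letters TGATGNAA and their reverse complement TTNCATCA were looked for in RefSeq promoters of build GRCm38.p6, each 300 bases long, from 250 before to 50 after the annotated start. The element was present in 18 of the 118 genes called higher that have a promoter in the table (15.25%). It was present in 2 of 114 genes called lower (1.75%) and in 258 of 9806 genes tested (2.63%). Over all 32851 promoters of the table, 3.97% held it. Among stress response members, 7 of 15 called genes held it, against 2 of 13 that were tested and not called. A match describes the letters in the window and is not evidence of binding. The windows below show it, in capitals, in the 40 bases around it for the 7 called stress response genes. Windows are also given for Jdp2, Tars and Slc1a4, which were called higher but are not on that list. These are 3 examples of 11 such genes, and all 3 read TTGCATCA or TGATGCAA. The second match of Aars, TTTCATCA, is not shown. Each window is read on the strand of its gene.
Trib3, chr2:152344023-152344062, minus strand: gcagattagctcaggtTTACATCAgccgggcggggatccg
Atf3, chr1:191183420-191183459, minus strand: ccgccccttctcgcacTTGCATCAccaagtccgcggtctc
Nupr1, chr7:126625557-126625596, minus strand: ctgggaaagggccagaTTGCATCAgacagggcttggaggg
Chac1, chr2:119351033-119351072, plus strand: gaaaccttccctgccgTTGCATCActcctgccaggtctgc
Asns, chr6:7693209-7693248, minus strand: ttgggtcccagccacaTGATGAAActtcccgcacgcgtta
Aars, chr8:111033714-111033753, plus strand: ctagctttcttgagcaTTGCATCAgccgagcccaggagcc
Slc7a11, first match, chr3:50443656-50443695, minus strand: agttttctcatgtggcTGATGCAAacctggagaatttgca
Slc7a11, second match, chr3:50443637-50443676, minus strand: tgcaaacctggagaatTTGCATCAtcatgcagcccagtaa
Jdp2, chr12:85599367-85599406, plus strand: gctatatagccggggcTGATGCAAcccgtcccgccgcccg
Tars, chr15:11399650-11399689, minus strand: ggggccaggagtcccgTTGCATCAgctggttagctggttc
Slc1a4, chr11:20332694-20332733, minus strand: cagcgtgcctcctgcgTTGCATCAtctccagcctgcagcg

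The 20 matches in the 18 genes called higher had several spellings, and 11 of them, in 10 genes, read TTGCATCA or its reverse complement TGATGCAA. That spelling stood in 0.89% of all promoters and in 0.7% of the tested genes that have a promoter in the table. Aars and Slc7a11 had 2 matches each, and those of Slc7a11 lie on opposite strands with overlapping windows. The genes with a match that are on no stress response list also included Arhgef2, a guanine nucleotide exchange factor for RhoA, Herpud1 and Nop14, a ribosome assembly factor. Arhgef2 rose by 0.56 ± 0.10 (limma, adjusted p = 0.00644). Nop14 rose by 0.46 ± 0.10 (adjusted p = 0.0203), and that call ended in 5 of the 6 fits that left out an array, all but the one without 6 h replicate 1 (adjusted p up to 0.0841). The 2 genes called lower with a match were Sfpq and Yod1.

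Of 16 enzymes tested that make serine, asparagine, cysteine and one-carbon units, 5 were called higher and 0 lower, which is 31.2%, and the median change was 0.27. Cth, which makes cysteine from cystathionine, read 11.66, 11.67 and 11.75 at 6 h, against 11.04, 11.06 and 11.05 at 3 h. Asns, asparagine synthetase, read 13.12, 13.14 and 13.21 at 6 h, against 12.56, 12.79 and 12.58 at 3 h. Psph, the last enzyme of serine synthesis, read 11.41, 11.48 and 11.65 at 6 h, against 10.86, 11.05 and 11.04 at 3 h. The 3 h arrays of Cth had an SD of only 0.01, and none of the 3 genes overlapped between the times. Cth rose 1.56-fold (limma, adjusted p = 2.36e-05), Asns 1.43-fold (adjusted p = 0.00392) and Psph 1.44-fold (adjusted p = 0.0018). Mthfd2, a mitochondrial folate enzyme, rose 1.40-fold (adjusted p = 0.00221). Phgdh, the first enzyme of serine synthesis, rose by only 0.24 ± 0.05 (adjusted p = 0.0273) and was not called in any of the 6 fits that left out an array (adjusted p up to 0.109) or after quantile normalization. Asns was not called without the intensity trend (adjusted p = 0.0697). Cbs, the enzyme before Cth, had the largest change of the list, 1.43 ± 0.56, but at a mean level of 6.51 at 6 h and 5.07 at 3 h it was not called (adjusted p = 0.215).

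Among 17 amino acid transporters tested, 4 were called higher and 0 lower, which is 23.5%, with a median change of 0.15. Slc7a11, the cystine importer xCT, read 7.46, 7.14 and 7.76 at 6 h, against 5.87, 6.39 and 5.74 at 3 h, where 1 array lay under the detection threshold. Slc7a5, the importer of large neutral amino acids, read 10.93, 10.91 and 11.17 at 6 h, against 10.39, 10.36 and 10.24 at 3 h. Slc7a1, the arginine and lysine importer, read 11.25, 11.30 and 11.53 at 6 h, against 10.80, 10.82 and 10.68 at 3 h. The 3 h arrays of Slc7a11 were the most spread of the 3 genes, with an SD of 0.34. Slc7a11 rose 2.74-fold (limma, adjusted p = 0.0137), Slc7a5 1.60-fold (adjusted p = 0.000174) and Slc7a1 1.51-fold (adjusted p = 0.00933). Slc1a4, which carries alanine, serine and cysteine, rose 1.48-fold (adjusted p = 0.0354). The call of Slc7a11 ended without 6 h replicate 3, 3 h replicate 1 or 3 h replicate 3 (adjusted p 0.0532 to 0.0728). That of Slc7a1 ended without 6 h replicate 3 or 3 h replicate 3 (up to 0.0581), and Slc1a4 was called only in the fit without 6 h replicate 1 (others up to 0.144). The count of called transporters was thus 4, 3 and 1 in the fits lacking 6 h replicate 1, 2 or 3, and 2, 3 and 1 in those lacking 3 h replicate 1, 2 or 3. Slc38a1, a glutamine transporter, had the lowest change of the list, -0.46, and was not called.

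Cytosolic aminoacyl-tRNA synthetases charge tRNAs with their amino acids. Of 19 tested, 5 were called higher and 0 lower (26.3%), 17 had positive changes and the median change was 0.16. Aars, the alanine enzyme, read 11.95, 12.05 and 12.20 at 6 h, against 11.60, 11.54 and 11.60 at 3 h. Sars, the serine enzyme, read 11.79, 11.82 and 11.92 at 6 h, against 11.46, 11.47 and 11.40 at 3 h. Neither overlapped between the times. Aars rose 1.40-fold (limma, adjusted p = 0.00287) and Sars 1.32-fold (adjusted p = 0.00249). Cars (cysteine) rose by 0.56 ± 0.12 (adjusted p = 0.0183), Nars (asparagine) by 0.32 ± 0.06 (adjusted p = 0.0104) and Tars (threonine) by 0.31 ± 0.07 (adjusted p = 0.0257). Cars was called only without 3 h replicate 2 or 3 among the 6 fits that left out an array (others up to 0.0759), Nars in all but those without 6 h replicate 3 and 3 h replicate 1 (up to 0.0581), and Tars in none (up to 0.103). The count over the 19 was 5, 3 and 2 in the fits lacking 6 h replicate 1, 2 or 3. It was 2, 4 and 4 in those lacking 3 h replicate 1, 2 or 3. Cars and Tars lost their call without 6 h replicate 1, so the 5 there included members not called in the main fit. Only Sars was called without the intensity trend. Xpot, which exports tRNAs from the nucleus, rose by 0.37 ± 0.07 (adjusted p = 0.00644), a call that ended with the mean of its probe sets (adjusted p = 0.554). Eif2s2, the beta subunit of eIF2, rose by 0.36 ± 0.07 (adjusted p = 0.00933) and lost its call without 6 h replicate 3 or 3 h replicate 3 (up to 0.0576). Of 15 mitochondrial synthetases tested 1 was called, Aars2, at least 2.30-fold higher with its 3 h arrays under the threshold, and 10 of the 15 had negative changes.

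**Figure D3:**
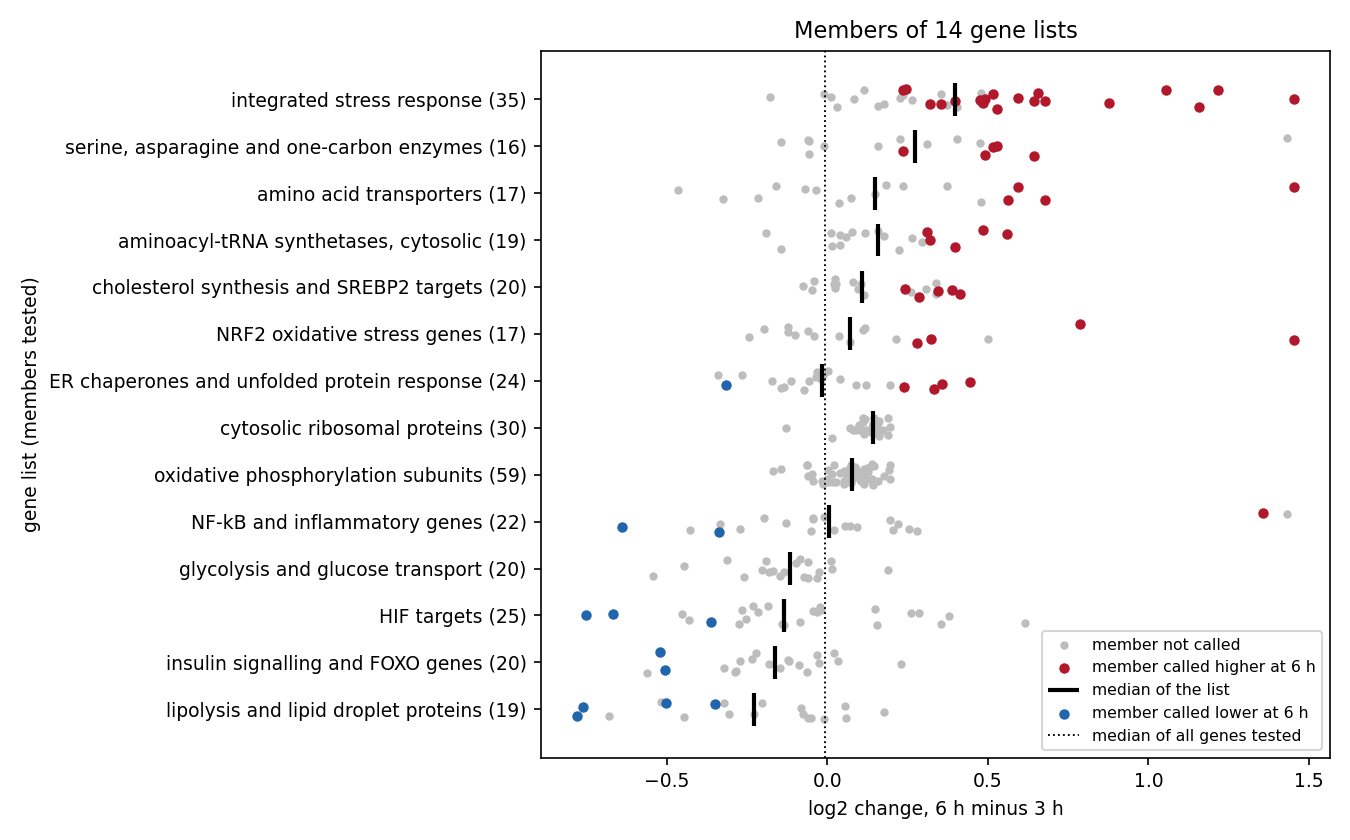
Log2 change at 6 h against 3 h of each tested member (points) of 14 gene lists, with the number tested in brackets, called members in red (higher) or blue (lower), black bars at each list's median and a dotted line at the median of all genes. The stress response and amino acid lists lie to the right and the lipolysis, insulin and HIF lists to the left.

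Beyond amino acid metabolism, genes of the oxidative stress response were mixed. Hmox1, heme oxygenase, which degrades heme, read 10.00, 10.01 and 10.21 at 6 h, against 9.21, 9.32 and 9.33 at 3 h. It did not overlap and rose 1.72-fold (limma, adjusted p = 0.000906). Of 17 NRF2 genes tested 4 were called higher and 0 lower (23.5%), namely Slc7a11, Hmox1, Nfe2l2, which encodes NRF2 itself (0.32 ± 0.07, adjusted p = 0.0203), and Sqstm1, the autophagy adaptor p62 (0.28 ± 0.07, adjusted p = 0.0385). The list members Nqo1, Gclc and Txnrd1, picked after their values were seen, had changes of -0.20, -0.12 and -0.10 and were not called. Without overlap between the times, 6 of the 17 were higher at 6 h and 1 was lower. Over all genes tested these shares were 10.3% and 11.1%. Over the 17 genes tested, 10 had positive and 7 negative changes, and the median change was 0.07. The call of Nfe2l2 ended without 6 h replicate 2, 3 h replicate 1 or 3 h replicate 3 (adjusted p up to 0.0962) and with the mean of its probe sets, where its change was 0.04 (adjusted p = 0.924), and that of Sqstm1 in all 6 fits that left out an array (up to 0.161). The list's count was 3, 2 and 2 in the fits lacking 6 h replicate 1, 2 or 3, and 1, 3 and 1 in those lacking 3 h replicate 1, 2 or 3.

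Among called genes outside the lists were a pair of polyamine enzymes, picked after their values were seen; no list of polyamine genes was tested. Odc1, the rate-limiting enzyme of polyamine synthesis, rose by 0.45 ± 0.09 (limma, adjusted p = 0.0124), with 11.73, 11.92 and 11.95 at 6 h, against 11.37, 11.51 and 11.37 at 3 h. Sat1, which acetylates polyamines for breakdown and export, rose by 0.55 ± 0.09 (adjusted p = 0.00452), with 13.72, 13.92 and 13.82 at 6 h, against 13.31, 13.33 and 13.18 at 3 h. Both genes separated the times fully. The call of Odc1 ended without 6 h replicate 2 or 3 or 3 h replicate 1 or 3 (up to 0.0625). It also ended with the mean of its probe sets (adjusted p = 0.108), and neither gene was called without the intensity trend.

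Further genes that were called in each of the 15 alternative fits rose by 1.43-fold to 1.99-fold. Ifrd1, a transcriptional coregulator, read 12.90, 12.96 and 13.05 at 6 h, against 12.31, 12.48 and 12.44 at 3 h. Cyb5r1, a reductase for cytochrome b5, read 11.73, 11.54 and 11.71 at 6 h, against 11.07, 11.14 and 11.21 at 3 h. Cdkn2b, which encodes the cell cycle inhibitor p15, read 11.34, 11.34 and 11.51 at 6 h, against 10.85, 10.99 and 10.80 at 3 h. The rises were 1.48-fold, 1.44-fold and 1.43-fold (limma, adjusted p = 0.000201, 0.0011 and 0.0018). Tbpl1, a relative of the TATA-binding protein, rose 1.77-fold (adjusted p = 0.000321), Paqr3, a Golgi protein that tethers RAF kinase, 1.99-fold (adjusted p = 0.00618) and Zbtb18, a zinc finger repressor, 1.47-fold (adjusted p = 0.000893). Ifrd1, Cyb5r1, Zbtb18 and Cdkn2b were named after their values were seen, as were Nupr1, Atf5, Xpot, Gtpbp2, Arhgef2, Eif2ak3, Odc1, Sat1, Vsir, Sfpq, Tardbp, Dhx9, Tnrc6b and Htr1d. Gtpbp2, which helps rescue stalled ribosomes, rose by 0.41 ± 0.08 (adjusted p = 0.0158), a call that ended without 6 h replicate 1 or 3 h replicate 2 or 3 (up to 0.0726). Mitf, a factor that drives lysosomal and pigment genes, rose 1.34-fold (adjusted p = 0.00644). Its call ended with the mean of its probe sets, where the change was 1.07 (adjusted p = 0.32).

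Ptgs2, cyclooxygenase 2, which starts prostaglandin synthesis, read 7.24, 7.01 and 7.76 at 6 h, against 5.80, 5.99 and 6.14 at 3 h. It rose 2.56-fold (limma, adjusted p = 0.011), although its call ended without 6 h replicate 3 (adjusted p = 0.0659). It was the only one of 22 NF-kB and inflammatory genes called higher, while 2 were called lower (13.6% in all). Both are inhibitors of NF-kB that its activity induces. Nfkbia fell by 0.34 on the log2 scale, with 13.50, 13.26 and 13.45 at 6 h, against 13.87, 13.74 and 13.59 at 3 h (adjusted p = 0.0394). Nfkbie fell by 0.64, with 8.88, 8.71 and 8.78 at 6 h, against 9.40, 9.59 and 9.29 at 3 h (adjusted p = 0.0492). Both lie close to the limit of significance: Nfkbia was called only without 6 h replicate 1 or 3 h replicate 3 and Nfkbie in none of the 6 fits that left out an array (adjusted p up to 0.179). The cytokine genes Il6 (0.25 ± 0.21, adjusted p = 0.606) and Ccl2 (-0.05 ± 0.12, adjusted p = 0.892) were not called. Jun, an immediate early gene, fell by 0.28 (adjusted p = 0.0483) and lost its call in all 6 (up to 0.194).

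Of 20 cholesterol synthesis genes tested 5 were called higher and 0 lower (25.0%), 17 had positive changes, and the median change was 0.11. The called genes were Cyp51 (0.41 ± 0.09), Mvd (0.39 ± 0.09), Lss (0.35 ± 0.08) and Msmo1 (0.29 ± 0.07), which encode enzymes of the pathway, and Insig1 (0.24 ± 0.06), which encodes the protein that retains its regulator SREBP in the endoplasmic reticulum. Their adjusted p-values in limma lay between 0.0234 and 0.0431. Cyp51 read 11.85, 11.97 and 11.99 at 6 h, against 11.53, 11.55 and 11.49 at 3 h. Hmgcs1, the synthase at the start of the pathway, was 0.10 ± 0.07 higher and was not called (adjusted p = 0.553). These calls were fragile. The count over the 20 genes was 3, 0 and 0 in the fits lacking 6 h replicate 1, 2 or 3. It was 0, 1 and 0 in those lacking 3 h replicate 1, 2 or 3. Of the 5 named genes only Cyp51 and Msmo1 were called without 6 h replicate 1, so the 3 there included another member. The count was 0 when the probe sets of a gene were averaged, where Lss had a change of 0.01 (adjusted p = 0.981). Srebf1, which encodes the lipogenic SREBP-1, fell by 0.33 (adjusted p = 0.0145), with 11.16, 11.17 and 11.11 at 6 h, against 11.43, 11.47 and 11.54 at 3 h, and its call ended without 6 h replicate 3 or 3 h replicate 3 (up to 0.0709). No called cholesterol gene held the sterol regulatory element letters TCACNCCAC or the reverse complement in its promoter window, and 1.46% of tested genes did. At so low a share, a count of 0 among 5 genes says little about them. Of the 11 list members with a promoter that were not called, 1 held the letters.

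The endoplasmic reticulum list was split. Of 24 members tested 4 were called higher and 1 lower (20.8%), 15 had negative changes, and the median change was -0.02. The higher genes, Ern1, Edem1, Herpud1 and Sel1l, encode the sensor IRE1 and proteins of the disposal of misfolded proteins. Their changes ran from 0.24 ± 0.06 to 0.45 ± 0.11. Syvn1, the ubiquitin ligase that partners with SEL1L, fell by 0.31 (limma, adjusted p = 0.0421). Eif2ak3, which encodes PERK and was called lower, is not on this list. The chaperones Hspa5, Hsp90b1 and Calr had changes of -0.01, 0.00 and -0.01 and were not called. The 4 rises depended on the arrays: Herpud1 held without 3 h replicate 1, and none of the other 3 genes was called in any fit that left out an array (adjusted p up to 0.160). With the mean of its probe sets Ern1 had a change of -0.16 (adjusted p = 0.913). Syvn1 was called only without 6 h replicate 2 (others up to 0.183).

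Clock genes included 2 called higher and 0 lower of 19 tested (10.5%). Cry1, a repressor of the clock, read 9.29, 9.32 and 9.43 at 6 h, against 8.65, 8.82 and 8.77 at 3 h. Dbp, a clock-controlled factor, read 11.18, 11.12 and 11.08 at 6 h, against 10.67, 10.72 and 10.58 at 3 h. They rose 1.52-fold (limma, adjusted p = 0.0205) and 1.38-fold (adjusted p = 0.02). Cry1 was called without 6 h replicate 1 or 3 h replicate 2 and in no other of the 6 fits (adjusted p up to 0.0811), and Dbp only without 3 h replicate 2 (others up to 0.0878). The E-box letters CACGTG, which clock factors bind, stood in the Cry1 promoter window and not in that of Dbp, and in 11.53% of tested genes.

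Among the lists, that of fat storage and release had the most genes called lower. Of 19 lipolysis and lipid droplet genes tested 4 were called lower and 0 higher (21.1%), 16 had negative changes, and the median change was -0.23. Hcar2, the niacin and ketone body receptor that restrains lipolysis, read 9.73, 9.67 and 9.45 at 6 h, against 10.38, 10.40 and 10.35 at 3 h. Pck1, which supplies glycerol for fat re-esterification, read 8.99, 9.40 and 9.10 at 6 h, against 9.80, 10.10 and 9.93 at 3 h. Pde3b, which breaks down cyclic AMP under insulin, read 11.27, 11.40 and 11.31 at 6 h, against 11.77, 11.91 and 11.82 at 3 h. None of the 3 overlapped. Hcar2 was 1.70-fold lower (limma, adjusted p = 0.000801), Pck1 1.72-fold lower (adjusted p = 0.0163) and Pde3b 1.42-fold lower (adjusted p = 0.011). Cidec, which enlarges lipid droplets, read 13.10, 13.07 and 13.09 at 6 h, against 13.53, 13.37 and 13.40 at 3 h, and fell by 0.35 ± 0.07 (adjusted p = 0.0129).

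The call of Hcar2 held in each of the 15 alternative fits. Leaving out 3 h replicate 2 ended the call of Pde3b (adjusted p = 0.0548). The call of Cidec ended without 6 h replicate 2 or 3 h replicate 1 (up to 0.0619), and that of Pck1 without 6 h replicate 1 or 3 or 3 h replicate 2 or 3 (0.0553 to 0.0752). Without the intensity trend only Hcar2 of the 4 was called. Hcar1, the lactate receptor beside it in the same family, read 7.17, 6.69 and 6.49 at 6 h and 7.04, 7.60 and 7.75 at 3 h, so that 1 array of each time overlapped, and it was not called (-0.68 ± 0.28, adjusted p = 0.235). Angptl4, a secreted inhibitor of lipoprotein lipase, read 11.63, 11.43 and 11.20 at 6 h, against 12.01, 12.08 and 12.03 at 3 h, and was 1.54-fold lower (adjusted p = 0.00055). Its call ended with the mean of its probe sets (adjusted p = 0.342), the other of which gave -1.46 ± 0.98. Of 16 mature adipocyte markers tested only Cidec was called. Adipoq, which encodes adiponectin, had a change of 0.08 ± 0.10 (adjusted p = 0.778) and Pparg, the master factor of fat cells, one of -0.01 ± 0.07 (adjusted p = 0.971).

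**Figure D4:**
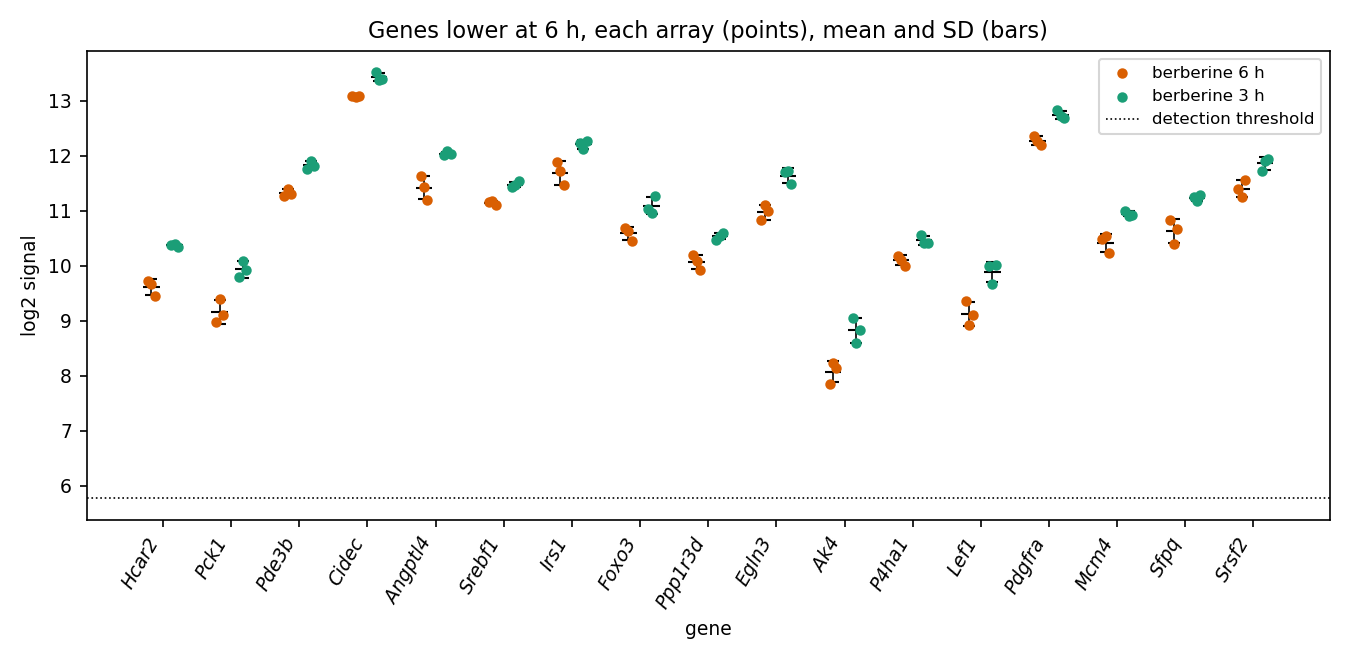
Log2 signal of 17 genes called lower, on each 6 h array (left, orange) and each 3 h array (right, green), with bars for the mean and SD of 3 arrays and the detection threshold dotted. All lie well above the threshold of 5.77, and in each the 3 arrays at 6 h lie under the 3 at 3 h.

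Of 20 genes of the insulin pathway tested 2 were called lower and 0 higher (10.0%), 17 had negative changes, and the median change was -0.16. Irs1, which encodes the first docking protein of the insulin receptor, read 11.89, 11.72 and 11.47 at 6 h, against 12.24, 12.12 and 12.27 at 3 h. Foxo3, a transcription factor that insulin inactivates, read 10.69, 10.63 and 10.45 at 6 h, against 11.04, 10.97 and 11.27 at 3 h. Irs1 was 1.43-fold lower (limma, adjusted p = 0.0218) and Foxo3 1.42-fold lower (adjusted p = 0.0132). Irs2, the second docking protein, read 8.06, 8.66 and 8.29 at 6 h, against 8.66, 8.91 and 9.13 at 3 h, a change of -0.56 ± 0.15 that was not called (adjusted p = 0.0655). Foxo3 lost its call without 6 h replicate 3 or 3 h replicate 3 (up to 0.0726) and Irs1 without 6 h replicate 2 or 3 or 3 h replicate 1 or 3 (up to 0.102). Ppp1r3d, which targets a phosphatase to glycogen, was 1.38-fold lower (adjusted p = 0.0119), and Gyg, the glycogen primer, was 1.16-fold higher (adjusted p = 0.046). Ppp1r3d lost its call without 6 h replicate 3 or 3 h replicate 3 (up to 0.0622) and Gyg in all 6 fits that left out an array (up to 0.169).

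Of 25 targets of the hypoxia factor HIF tested 3 were called lower and 0 higher (12.0%), 18 had negative changes, and the median change was -0.13. Egln3, a prolyl hydroxylase that marks HIF for destruction, read 10.83, 11.10 and 10.99 at 6 h, against 11.71, 11.72 and 11.49 at 3 h. Ak4, an adenylate kinase of the mitochondrial matrix, read 7.86, 8.23 and 8.14 at 6 h, against 9.05, 8.61 and 8.83 at 3 h. Egln3 was 1.59-fold lower (limma, adjusted p = 0.00452), Ak4 1.68-fold lower (adjusted p = 0.0234) and P4ha1, which hydroxylates collagen, 1.29-fold lower (adjusted p = 0.0247). Ankrd37 read 6.33, 7.23 and 6.84 at 6 h and 6.79, 6.84 and 6.33 at 3 h, overlapping fully (adjusted p = 0.822). Egln3 was called in all 6 fits that left out an array and not without the intensity trend (adjusted p = 0.0773). Ak4 lost its call without 6 h replicate 1 or 3 or 3 h replicate 1 or 3 (up to 0.103), and P4ha1 was called only without 6 h replicate 1 (others up to 0.106). Of 20 glycolysis and glucose transport genes 0 were called by limma and 4, all lower, had an unadjusted p under 0.05, which 15.9% of all genes tested had.

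Of 26 splicing factors tested 2 were called, Srsf2 and Srsf6, both lower (7.69%), and the median change was -0.05. They are given here with 4 other RNA-binding proteins called lower, which were picked after their values were seen and stand for no list. Sfpq, a nuclear splicing and paraspeckle protein, read 10.83, 10.39 and 10.67 at 6 h, against 11.25, 11.18 and 11.28 at 3 h. Tardbp, which encodes TDP-43, read 10.66, 10.79 and 10.76 at 6 h, against 11.18 on each of the 3 arrays at 3 h. Srsf2, a splicing factor, read 11.40, 11.25 and 11.56 at 6 h, against 11.73, 11.91 and 11.95 at 3 h. The groups did not overlap in any of the 3. The decreases were 1.53-fold for Sfpq (limma, adjusted p = 0.0018), 1.36-fold for Tardbp (adjusted p = 0.0033) and 1.37-fold for Srsf2 (adjusted p = 0.00522). Dhx9, an RNA helicase, was 1.31-fold lower (adjusted p = 0.00618) and Tnrc6b, a core protein of microRNA silencing, fell by 0.59 on the log2 scale (adjusted p = 0.00219). These 5 were called in each fit that left out an array, but only Dhx9 was called with the mean of the probe sets of a gene, and neither it nor Srsf2 was called without the intensity trend. Of the 4 other probe sets of Tardbp 1 went the other way, by 0.33 ± 0.09 (adjusted p = 0.0936 over all probe sets). Srsf6 fell by 0.28 (adjusted p = 0.0285) and was called only without 6 h replicate 1 or 3 h replicate 1 among these fits (others up to 0.138).

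Other precise decreases stood outside these lists or alone within them. Lef1, a transcription factor of Wnt signalling, read 9.36, 8.92 and 9.11 at 6 h, against 9.99, 9.68 and 10.01 at 3 h. Vsir, which encodes the immune checkpoint protein VISTA, read 11.12, 11.14 and 10.92 at 6 h, against 11.61, 11.64 and 11.67 at 3 h. Mcm4, a subunit of the replication helicase, read 10.49, 10.53 and 10.24 at 6 h, against 11.00, 10.92 and 10.93 at 3 h. Pdgfra, the growth factor receptor that marks preadipocytes, read 12.37, 12.26 and 12.20 at 6 h, against 12.83, 12.72 and 12.70 at 3 h. In all 4 every 6 h array lay under every 3 h array. They were 1.70-fold, 1.49-fold, 1.44-fold and 1.39-fold lower (limma, adjusted p = 0.00288, 0.000337, 0.0018 and 0.0018). Mcm4 was the only one of 27 cell cycle genes called, and Pdgfra the only one of 17 fibroblast and preadipocyte genes. With the mean of their probe sets Lef1 (adjusted p = 0.17) and Pdgfra (0.0559) were not called.

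A further 8 genes were called lower with changes that were less firmly measured. H2bc21, a histone H2B gene, was 1.79-fold lower (limma, adjusted p = 0.0134), Tmem14a, a small membrane protein, 1.74-fold lower (adjusted p = 0.0254), and Dido1, a chromatin reader, 1.65-fold lower (adjusted p = 0.0218). Asb1, Prorp, which encodes the protein subunit of mitochondrial RNase P that cuts tRNA ends, and Yod1, a deubiquitinase, were 1.62-fold, 1.61-fold and 1.58-fold lower (adjusted p = 0.0254, 0.0176 and 0.021). Dgcr8, which recognises microRNA precursors, and Ddx46, a splicing helicase, were 1.55-fold and 1.54-fold lower (adjusted p = 0.0408 and 0.023). Each of these 8 lost its call in at least 2 of the 6 fits that left out an array. H2bc21 lost it without 6 h replicate 2 or 3 h replicate 1 (up to 0.0626), Prorp without 6 h replicate 3 or 3 h replicate 1 or 3 (up to 0.0914), and Dgcr8 in all 6 (up to 0.194). Tmem14a, Dido1, Asb1, Yod1 and Ddx46 were called in 1 or 2 of the 6, with adjusted p up to 0.113 in the others.

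The largest fitted increases among called genes were in dim probe sets. The 1214 dimmest genes tested had a median change of 0.09, against -0.01 for all genes. The part of such a shift in these increases was not tested. Nlgn3, a synaptic adhesion protein, Pax4, a pancreatic transcription factor, and Aars2 had 3 h means under the detection threshold, and with values under it raised to it they were at least 1.16-fold, 1.60-fold and 2.30-fold higher at 6 h (adjusted p in limma 0.0305, 0.0258 and 0.0419 on the values as deposited). In the fit with the raised values themselves, Nlgn3 (adjusted p = 0.548) and Pax4 (0.117) were not called, while Aars2 was (0.0175). Htr1d, a serotonin receptor, had both group means under the threshold, so no fold is given (adjusted p = 0.0304). A gene was tested if at least 3 of 12 arrays of a probe set reached the threshold. Htr1d and Nlgn3 did so only with DMSO or 12 h arrays counted. In Pax4 and Aars2, of the compared groups only the 6 h one had a mean at or above it. Of these 4 only Aars2 was called in any of the 6 fits that left out an array, in 1 of them, and adjusted p-values reached 0.149. Their DMSO and 12 h arrays spread widely: the 3 DMSO arrays of Htr1d read 3.55, 5.44 and 5.22. Plcl2, a phospholipase C-like protein, and Mex3b, an RNA-binding protein, were 2.03-fold and 1.68-fold higher (adjusted p = 0.0287 and 0.023) and were called in 1 of the 6 fits each (others up to 0.139).

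Some lists had mostly positive changes without a single call. Of 30 cytosolic ribosomal proteins tested 0 were called by limma, 10 had an unadjusted p under 0.05, and 29 had positive changes with a median of 0.14. Of 59 oxidative phosphorylation subunits 0 were called and the median change was 0.08; 9 had an unadjusted p under 0.05, a share close to the 15.9% of all genes tested. These are bright genes, and the scaling bears on them. After quantile normalization the median changes were 0.03 and 0.01, and the members higher at 6 h without overlap numbered 6 in place of 17 for ribosomal proteins and 4 in place of 13 for the subunits. Over all genes tested 10.3% were higher without overlap (10.8% after quantile normalization), and 23.7% of the 1214 brightest genes were, so the counts of the subunits were near or under the share of bright genes. All 18 probe sets of the spiked-in control transcripts, which are not made by the cells, also read higher at 6 h, by a median of 0.17 (range 0.10 to 0.23), 3 of them without overlap. The 1214 brightest genes had a median change of 0.04, against -0.01 for all genes. The part of such a shift in the small rises of bright genes was not tested. The stress response list kept a median of 0.39 and 18 calls after quantile normalization.

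Further lists had 0 called members in limma, and most had counts near or under the 15.9% of all genes tested that reached an unadjusted p under 0.05: 2 of 19 AMPK and PGC-1 genes, 3 of 25 tricarboxylic acid cycle genes, 2 of 18 genes of branched-chain amino acid breakdown, 2 of 15 cytosolic heat shock proteins, 2 of 17 mitochondrial chaperones, 3 of 16 BCL2 family genes, 4 of 28 collagens and matrix genes and 5 of 20 interferon-stimulated genes. The interferon list had the highest median of these, 0.22, and 18 of its 20 members had positive changes. Rsad2, an antiviral enzyme, read 8.67, 9.46 and 9.76 at 6 h and 7.77, 8.62 and 9.03 at 3 h, with overlap (adjusted p = 0.227). All 7 brown and beige adipocyte markers tested had positive changes, with a median of 0.37. Of these 7, 0 were called and 1 had an unadjusted p under 0.05. Of 14 ERK feedback genes 0 were called and 3 had an unadjusted p under 0.05. Dusp6 and Spry4, which damp ERK signalling, had changes of 0.09 ± 0.23 (adjusted p = 0.908) and -0.40 ± 0.16 (adjusted p = 0.209). Fatty acid synthesis and fatty acid oxidation had 1 called member each, both lower, of 21 and 22 tested. These were Srebf1 and Cpt2, a carnitine transferase of mitochondrial fat burning, which was 1.27-fold lower (adjusted p = 0.0287) and was called only without 6 h replicate 1 (others up to 0.128).

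Transcription factors that guide fat cell formation were split. Of 19 KLF, C/EBP and other such factors tested 2 were called higher and 1 lower, which is Srebf1 (15.8% in all). Klf4, a pluripotency and early adipogenic factor, read 10.21, 10.03 and 10.16 at 6 h, against 9.71, 9.64 and 9.77 at 3 h (1.34-fold higher; limma, adjusted p = 0.023). Klf9, a target of the glucocorticoid receptor, read 13.38, 13.43 and 13.24 at 6 h, against 13.07, 12.87 and 13.12 at 3 h (1.26-fold higher, adjusted p = 0.0282). Neither overlapped between the times. Of 17 glucocorticoid response genes Klf9 was the only one called higher, while Angptl4 and Pck1 were called lower. Klf4 was called only without 6 h replicate 2 among the fits that left out an array (others up to 0.0919), and Klf9 only without 6 h replicate 3 or 3 h replicate 3 (others up to 0.139).

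Single calls also came from further genes. Sesn3, a sestrin that FOXO factors induce, fell by 0.34 (limma, adjusted p = 0.0403), and Mitf was the only other called member of 23 mTORC1 and lysosomal signalling genes. Cyp1b1, a target of the aryl hydrocarbon receptor, fell by 0.31 (adjusted p = 0.0416) and was the only one called of 6. Psmc6, an ATPase subunit of the proteasome, rose by 0.23 ± 0.06 (adjusted p = 0.0472) and was the only one called of 28. None of these 3 was called in any fit that left out an array (adjusted p up to 0.196), and with the mean of their probe sets Sesn3 and Psmc6 had changes of -0.02 and 0.04 (adjusted p = 0.945 and 0.908). Sqstm1 was the only call among 32 autophagy and lysosome genes, and Nop14 the only one among 28 ribosome biogenesis genes. Inhbb, which encodes a subunit of the activins and was named after its values were seen, read 8.52, 8.52 and 8.26 at 6 h, against 9.13, 8.92 and 9.04 at 3 h, and was 1.51-fold lower (adjusted p = 0.0163). Its call ended without 6 h replicate 3 or 3 h replicate 1 or 3 (up to 0.0728).

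Set beside the other groups of the series, the genes followed several courses, which are described without a test. The means below are log2 signals ± SD over 3 arrays each. Trib3 had 10.29 ± 0.26 in DMSO cells, 11.08 ± 0.02 at 3 h, 12.23 ± 0.12 at 6 h and 12.82 ± 0.05 at 12 h, so that the step between 3 h and 6 h was the largest. Atf4 had 12.42 ± 0.04, 13.14 ± 0.14, 13.80 ± 0.08 and 13.84 ± 0.05 in the same order, with 6 h and 12 h nearly level. Chac1 was highest at 6 h, with 9.84 ± 0.09, 10.94 ± 0.02, 11.29 ± 0.18 and 10.94 ± 0.09. Slc7a11 changed little by 3 h and more by 6 h, with 5.59 ± 0.30, 6.00 ± 0.34, 7.45 ± 0.31 and 7.87 ± 0.32.

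Hmox1 had 9.02 ± 0.19 in DMSO cells, 9.29 ± 0.07 at 3 h, 10.07 ± 0.12 at 6 h and 11.41 ± 0.18 at 12 h. Its largest step came after 6 h, over a longer interval than that from 3 h to 6 h. Hcar2 was lower at each later time, with 11.02 ± 0.12, 10.38 ± 0.02, 9.61 ± 0.15 and 8.86 ± 0.20, and Egln3 was too, with 12.31 ± 0.28, 11.64 ± 0.13, 10.97 ± 0.14 and 10.32 ± 0.10. Pck1 was close to its DMSO level at 3 h, with 10.06 ± 0.24 in DMSO cells and 9.94 ± 0.15, and then had 9.16 ± 0.21 at 6 h and 7.80 ± 0.33 at 12 h. Nfkbie was highest at 3 h, with 8.47 ± 0.39 in DMSO cells, 9.43 ± 0.15 at 3 h, 8.79 ± 0.08 at 6 h and 8.40 ± 0.23 at 12 h, so its mean at 6 h lay within the range of the DMSO arrays. Jun was likewise highest at 3 h, at 11.10 ± 0.08, against 10.49 ± 0.09 in DMSO cells. Ankrd37 had 9.15 ± 0.19 in DMSO cells and between 6.61 and 6.80 at the 3 berberine times, so its difference from DMSO cells was present by 3 h. Insig1 was highest at 6 h, with 13.24 ± 0.11, 13.35 ± 0.01, 13.59 ± 0.05 and 13.26 ± 0.03.

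**Figure D5:**
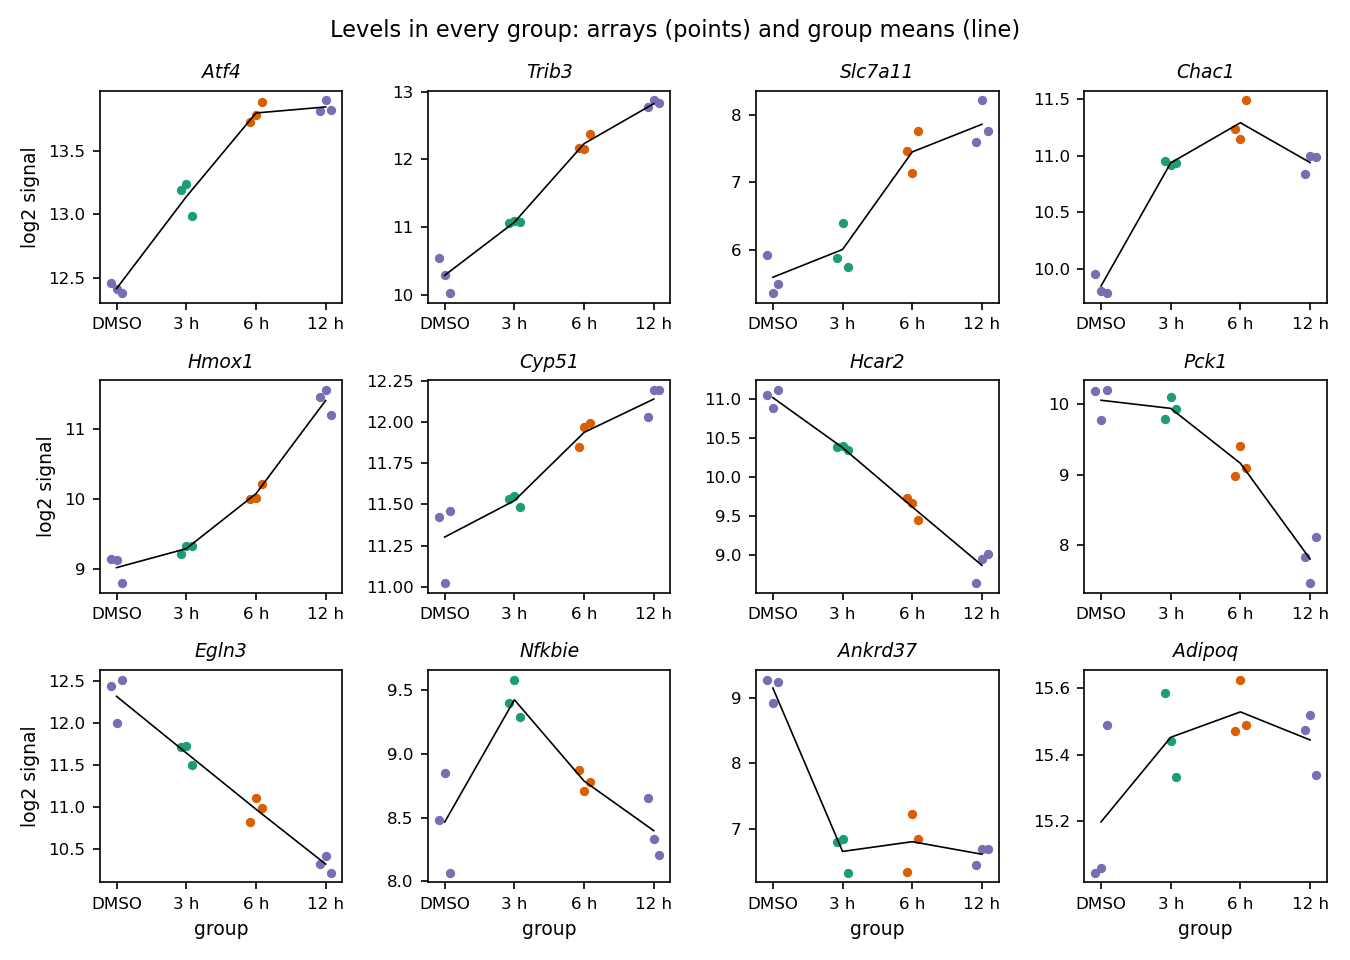
Log2 signal of 12 genes on each array (points) in DMSO cells and at 3 h, 6 h and 12 h of berberine, with a line through the group means; each panel has its own vertical range. Most of the measured rise of Slc7a11, whose DMSO mean is under the detection threshold, falls between 3 h and 6 h. Chac1 is highest at 6 h, Nfkbie at 3 h, and Ankrd37 is as low at 3 h as at 6 h.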

How the data were processed

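Members, gene lists and named genes were chosen with earlier results of these data known. The authors deposited log2 signals of single-colour Affymetrix arrays, 1 column per array; the submitters' processing notes name MAS5, without a version in the sources used here. Every array had a 2% trimmed mean of 500.004 on the linear scale. MAS5 scales each array by 1 factor and leaves in a bias that varies with brightness. Detection calls and scanner files were not used here. The number of arrays limits the precision.

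Of 45037 non-control probe sets, those that reached the median of all values (5.77 on the log2 scale, 54.6 linear) on at least 3 of 12 arrays were kept, 25053 in all. Symbols were taken from the platform annotation and brought up to date with RefSeq's gene table; 34945 probe sets had 1 symbol, 932 several and 9160 none. The kept probe set of highest mean stood for its gene, one ending in _x_at only where it had no other.

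limma 3.58.1 in R 4.3.3 fitted all 12 arrays with 1 mean for each group, which left 8 degrees of freedom. The contrast 6 h minus 3 h was tested two-sided after eBayes moderation that included an intensity trend. SE is limma's standard error and fold changes are ratios of geometric means. The script was tested on simulated data. The 47 lists held 984 genes, 864 of them tested, and are described by counts and medians. Named genes were the 15 largest rises and falls with both means above the threshold, up to 5 further per direction given as bounds, up to 5 called members per list (2 where none was called) and 20 single genes; some were left out for space, and called genes outside this rule are marked in the text; the uncalled list members named beyond it, such as Cbs or Nqo1, were also chosen after their values were seen. Alternatives changed the arrays fitted, scaling, dim-value filter, variance model and probe set choice, added the replicate number as a block, and left out each of the 6 arrays in turn. Figures used Python 3.11.15 and matplotlib 3.10.9.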

Additional observations from a re-analysis of the deposited data

How the results depend on the processing

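Of the 284 calls (145 higher, 139 lower), 272 genes kept their direction in all 15 alternative fits in which they were tested, and 21 were called in each. Counts in total, higher and lower were 60, 35 and 25 with eBayes lacking the trend, 146, 76 and 70 when probe sets of a gene were averaged, and 10, 10 and 0 with a change of at least 1 as well. With each array centred on its median they were 244, 168 and 76. Leaving out 1 array gave 85 to 229 in total, 45 to 107 higher and 38 to 122 lower. Fits on the 6 arrays alone (286), after quantile normalization (271), without a filter on dim probe sets (250), with all 6 arrays above the threshold (321) and with dim values raised to it (283) stayed within 1.5 times of 284. The replicate number as a block gave 275 calls, 257 of them shared; deviations of same-numbered arrays correlated at 0.01, -0.00 and -0.00, so the numbers were not taken as pairs.

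Among the 284 called genes 12 turned sign in an alternative, 11 with the mean of a gene's probe sets and 1, Htr1d, without the filter. Adipoq had -0.047 after quantile normalization, and Htr1d had -0.94 without the filter, where another probe set stood for it. Averaging the probe sets gave -0.16 for Ern1 and 0.22 for Spry4. With 1 array left out, Ankrd37 ran between -0.065 and 0.38 and Dusp6 between -0.019 and 0.21. Pparg had 0.034 after centring and -0.056 to 0.070 with 1 array left out. Apart from the change of probe sets, the cause was not tested. Signals near or under the threshold are noisy, so the dim probe sets are the least certain.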
